A study of Homo sapiens with 6 samples.

Results

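The genes described here encode 10 inhibitors of TGF-beta and BMP signalling: the nuclear corepressors TGIF1, TGIF2, SKI and SKIL, the inhibitory SMADs SMAD6 and SMAD7, the membrane proteins BAMBI and PMEPA1, and the ubiquitin ligases SMURF1 and SMURF2. They were taken as all probe sets, other than array controls, that the platform annotation assigns to exactly 1 of these symbols, which gave 31 of 54613 probe sets. The cells were K562, an established line from a chronic myelogenous leukaemia, grown in wells and exposed for 3 h either to the vehicle DMSO (3 arrays) or to 25 nM CA (3 arrays), named in the series title as cortistatin A, which blocks CDK8 and CDK19, the kinases of the Mediator complex. All 6 arrays share the same line, so the wells of a group are replicates of the exposure and not of the cell line, and p-values measure only the spread between wells. Messenger RNA was measured on Affymetrix U133 Plus 2.0 arrays, and values are log2 signals after RMA, a procedure that brings all arrays to a common overall level. A difference of 1 on this scale is a doubling of signal, and signals of different probe sets were not set against each other.

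TGF-beta, activin and BMP ligands bind serine/threonine kinase receptors that phosphorylate receptor-regulated SMADs. These join SMAD4, enter the nucleus and activate or repress target genes. Each level has its own brake. BAMBI is a receptor-like protein without a kinase domain, SMAD6 and SMAD7 block the receptors or compete for SMAD4, SMURF1 and SMURF2 mark receptors and SMADs for degradation, PMEPA1 sequesters receptor-regulated SMADs, and TGIF and SKI proteins recruit histone deacetylases to SMADs on DNA. Several of these genes, SMAD7, SKIL and PMEPA1 among them, are themselves known as TGF-beta targets, and SMAD6 as a BMP target. CDK8, a target of CA, is known to phosphorylate the linker region of SMADs that receptors have activated.

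Promoters of the 3 members with the smallest p, TGIF1, BAMBI and SMAD6, are printed because their values carry most of the results below. Sequences are from RefSeq (GRCh38.p14), where 9 of the 10 genes were found with 21 start sites in all, 7 of them for TGIF1. SKI was the gene not matched. Each printed window holds the 250 bases before a start site, 5′ to 3′ on the strand of the gene. In the TGIF1 and BAMBI windows the capitals mark CTGTCA, the core bound by TALE homeodomain proteins such as TGIF1, here found as its reverse complement TGACAG. In the SMAD6 window they mark GTCTAGAC, the palindromic SMAD binding element. Of 9 motifs searched, the one capitalised in each window was picked after the matches had been seen, so the capitals are an illustration. The SMAD6 window also holds CTGTCA, left in lower case. Only the 2 of 7 TGIF1 windows with a match are shown.
TGIF1, chr18:3447292-3447541, plus strand: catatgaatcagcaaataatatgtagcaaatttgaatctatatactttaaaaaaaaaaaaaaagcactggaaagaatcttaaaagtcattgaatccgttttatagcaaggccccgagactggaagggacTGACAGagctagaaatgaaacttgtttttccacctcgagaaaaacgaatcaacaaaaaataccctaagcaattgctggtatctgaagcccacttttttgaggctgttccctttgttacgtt
TGIF1, chr18:3449922-3450171, plus strand: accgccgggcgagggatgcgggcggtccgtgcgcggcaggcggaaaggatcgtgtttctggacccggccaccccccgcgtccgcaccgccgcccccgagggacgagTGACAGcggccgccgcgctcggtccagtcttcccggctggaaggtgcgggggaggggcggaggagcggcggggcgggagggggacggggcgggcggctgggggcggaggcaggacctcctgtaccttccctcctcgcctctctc
BAMBI, chr10:28677271-28677520, plus strand: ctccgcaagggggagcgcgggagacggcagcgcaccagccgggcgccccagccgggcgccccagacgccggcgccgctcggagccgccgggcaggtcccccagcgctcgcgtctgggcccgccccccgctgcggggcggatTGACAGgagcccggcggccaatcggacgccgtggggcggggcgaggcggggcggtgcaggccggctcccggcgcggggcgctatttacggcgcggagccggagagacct
SMAD6, chr15:66701986-66702235, plus strand: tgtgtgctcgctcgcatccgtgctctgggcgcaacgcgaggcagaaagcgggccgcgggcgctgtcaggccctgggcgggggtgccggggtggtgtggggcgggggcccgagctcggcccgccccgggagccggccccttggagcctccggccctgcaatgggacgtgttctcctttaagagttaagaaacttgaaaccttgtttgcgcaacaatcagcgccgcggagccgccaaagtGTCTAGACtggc

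The matches lie 121 and 144 bases before the 2 TGIF1 starts, 109 bases before that of BAMBI and 12 bases before that of SMAD6, counted to the first base of the match. Both strands were searched. CTGTCA was in 5 of the 21 windows, from BAMBI, SMAD6, SMAD7 and TGIF1, and in 13.0% of all 35116 windows of this length. GTCTAGAC was in 1 of the 21 windows and in 0.182% of all. The SMAD half-site CAGAC was in 11 windows, from BAMBI, PMEPA1, SKIL, SMAD7, SMURF1 and TGIF1, against 38.0% of all. The GC-rich SMAD site GGCGCC, which is its own reverse complement, was in 4 windows, from BAMBI, PMEPA1, SKIL and TGIF2, against 16.4%. The other 5 motifs searched had few matches in the members. TTCNNNGAA, a STAT site, was in 0 of the 21 windows (6.57% of all). For the serum response element only 1 fixed 10-base sequence was searched, found in 0 of the 21 windows (0.0313% of all). Other sequences of that element were not searched, so its absence from these windows was not tested. TGANTCA, a pattern wider than the AP-1 site because it allows any middle base, was in 1 TGIF1 window (6.57%), there as TGAATCA. The GATA motif AGATAA was in 1 TGIF1 window (9.17%) and the cAMP response element TGACGTCA in the window of SKIL (1.65%). These matches describe letters only, and no binding was measured.

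Probe sets with a mean signal below 3.49, the median of the 6-array means, were not tested. The filter kept 27307 probe sets and 20 of the 31 member probe sets, from 8 of the 10 genes. SMAD7 and PMEPA1 had none. The lowest tested member, a SMURF2 probe set, sat on the threshold itself at 3.49, and the highest untested one, of TGIF1, was at 3.45. CA was compared with DMSO by limma, and a probe set was called at a Benjamini-Hochberg adjusted p under 0.05 over all 27307. That gave 26 calls over the whole array, 14 higher and 12 lower, which is 0.0952% of the probe sets tested. With the arrays scaled to the 3′ ends of added control RNAs, described next, it was 3675 higher and 16 lower.

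The arrays differed between the groups and also within CA. On the first principal component DMSO arrays lay at -9.98 to -5.89 and CA arrays at -1.41 to 13.3. CA array 1 alone lay apart on the second principal component, at -19.0 against 0.338 to 7.20 for the other 5 arrays. The signal of 3′ over 5′ control probe sets, averaged over actin and the added bacterial RNAs dap and thr, was 2.35 to 2.43 on the log2 scale in DMSO and 2.05 to 2.23 in CA. These are the 3 of 6 controls whose ratios separated the groups, chosen with that known. The ratios of GAPDH (0.619 to 0.645 in DMSO, 0.583 to 0.629 in CA), lys (0.729 to 0.855 and 0.705 to 0.866) and phe (0.601 to 0.626 and 0.515 to 0.613) overlapped. The mean ratio of all 6 controls was 1.51 to 1.57 in DMSO and 1.34 to 1.46 in CA. Scaling the arrays to the 3′ probe sets of the added RNAs (dap, lys, phe and thr) would add 0.20 to every change, and scaling to their 5′ probe sets 0.04. The part of these differences in the results was not tested beyond the values given with each of them. In cultures measured in bulk, fewer cells with a transcript and less of it per cell cannot be told apart. Erythroid genes that mark K562 were bright, with means of 8.40 (GATA1) to 13.27 (HBE1) over 6 measured markers. Of these 6, 2 had an unadjusted p under 0.05 by limma with no filter, TAL1 with a change of 0.22 (unadjusted p = 0.00584) and LMO2 with 0.36 (unadjusted p = 0.000535). Of 14 markers of T cells, B cells, monocytes, epithelium and fibroblasts, 0 had an unadjusted p under 0.05 by limma with no filter. EPCAM (10.5), CD3D (9.07), LYZ (8.88) and COL1A1 (6.94) were bright in both groups, while CD2, CD14, MS4A1, CDH1 and COL3A1 were below the filter.

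None of the 20 tested member probe sets was called. TGIF1 came closest, with a 1.45-fold higher signal in CA and all 3 CA arrays above all 3 DMSO arrays, followed by BAMBI at 1.14-fold. TGIF2 and SMAD6 were lower in CA by 1.10-fold and 1.14-fold with groups that did not overlap, but had log2 changes of 0.06 and 0.01 with 3′ control scaling. The brightest probe sets of SKI, SKIL, SMURF1 and SMURF2 had fitted changes between -0.03 and 0.02. Of the 20, 6 had an unadjusted p under 0.05 by limma, 3 higher and 3 lower, where 9.31% of all tested probe sets did. The groups did not overlap for 8 of the 20, 4 higher and 4 lower. This held for 15.6% of all tested probe sets, 7.09% higher and 8.52% lower. The 20 probe sets come from 8 genes and are not independent. Changes were above 0 for 11 and below 0 for 9, or above 0 for all 20 with 3′ control scaling. Their median change was 0.01, and that of all tested probe sets was -0.01. With a mean-dependent prior variance in the model, TGIF1 and BAMBI were called, on an array with 1.04% of probe sets called under that rule.

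**Figure D1:**
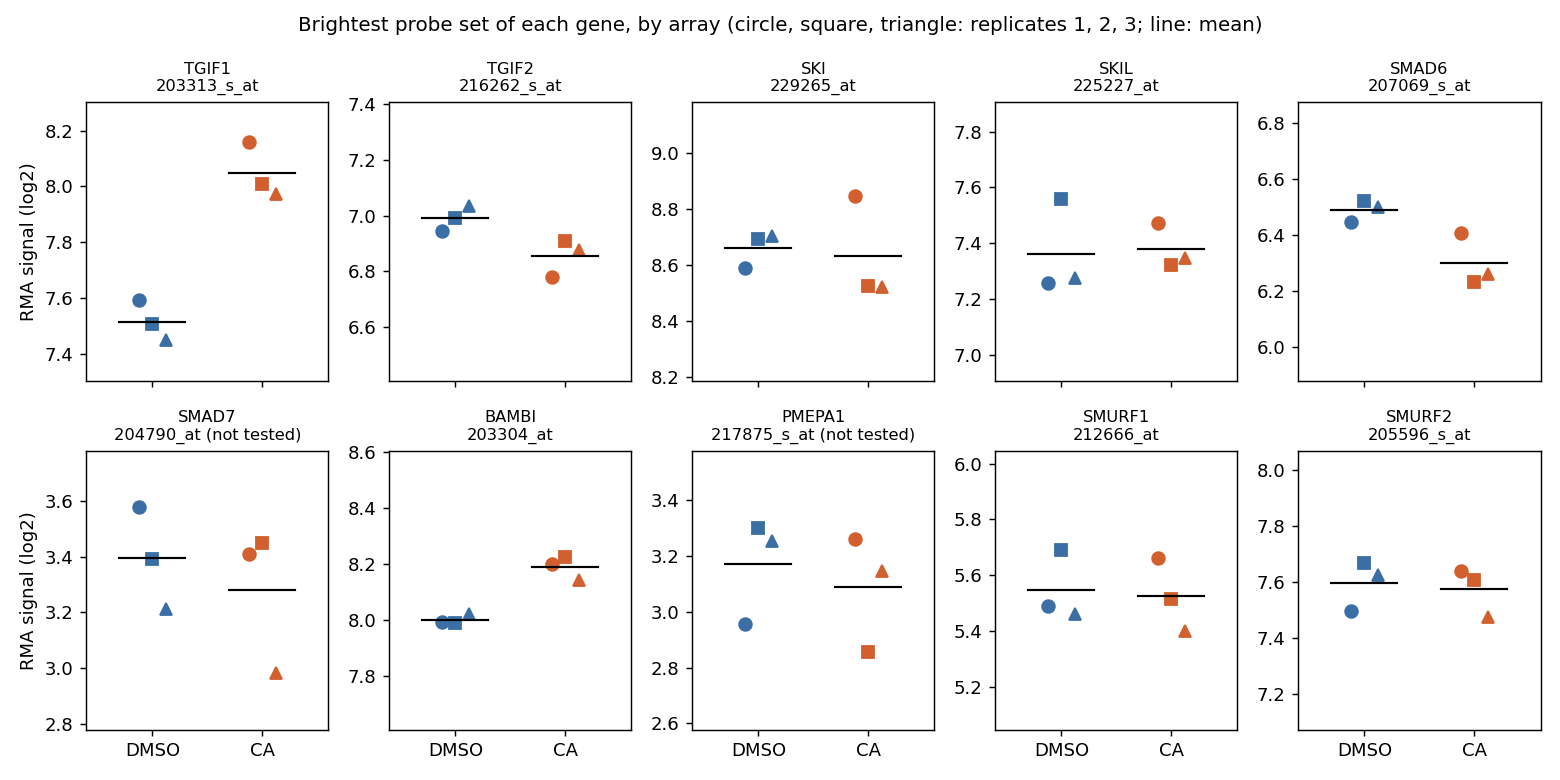
RMA signal (log2, vertical axes of equal span) of the brightest probe set of each of the 10 genes on 3 DMSO arrays (blue) and 3 CA arrays (orange); circle, square and triangle are replicates 1, 2 and 3, and lines are means. The CA arrays of TGIF1 lie at 7.97 to 8.16, above the DMSO arrays at 7.45 to 7.59, and BAMBI, TGIF2 and SMAD6 show smaller gaps.

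TGIF1, a homeodomain protein that represses SMAD-activated transcription, was measured on the probe set 203313_s_at at 7.59, 7.51 and 7.45 on DMSO arrays 1 to 3 and at 8.16, 8.01 and 7.97 on CA arrays 1 to 3. The lowest CA array was thus above the highest DMSO array. The means were 7.52 ± 0.07 in DMSO and 8.05 ± 0.10 in CA (SD, n = 3). The log2 change was 0.53 (SE 0.07, 95% confidence interval 0.37 to 0.69), rank 44 of the tested probe sets by p, with a limma adjusted p of 0.0817. With each array left out in turn the change was 0.48 to 0.57 (limma adjusted p = 0.194 to 0.354). Without CA array 1, which had the highest TGIF1 signal, the change was 0.48 (limma adjusted p = 0.194), the lowest of each. With the 3′/5′ ratio of the 3 controls that separated the groups as a covariate, a setting chosen after the data were examined, it was 0.32 (limma adjusted p = 0.857, unadjusted p = 0.0769), and with the ratio of all 6 controls 0.40 (limma adjusted p = 0.829). It was called with the mean-dependent prior variance (limma adjusted p = 0.000214), with a stricter filter, at the 75th percentile of signal, (0.00883), and with 3′ (0.0113) or 5′ (0.0255) control scaling. Of all tested probe sets the prior called 1.04%, and the stricter filter 99 higher and 63 lower of 13654. Of 27307, 3′ scaling called 3675 higher and 16 lower, and 5′ scaling 16 higher and 12 lower.

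The other TGIF1 probe sets were dim. 244858_at read 4.25, 4.16 and 4.24 in DMSO and 4.06, 4.34 and 4.30 in CA, a change of 0.02 (95% confidence interval -0.18 to 0.21) with overlapping groups. 1566901_at, below the filter, read 3.38, 3.24 and 3.32 in DMSO and 3.83, 3.33 and 3.60 in CA, a change of 0.27 in which CA array 2 fell within the DMSO range. The TGIF1 result therefore rests on 1 probe set, whose suffix _s marks probes shared between transcripts. The mean of both tested TGIF1 probe sets changed by 0.27 (limma adjusted p = 0.169).

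TGIF2, the paralogue with the same repressor role, was lower in CA on its brighter probe set. 216262_s_at read 6.94, 6.99 and 7.03 in DMSO and 6.78, 6.91 and 6.88 in CA. No CA array reached the DMSO arrays, but the gap between the nearest was small. The change was -0.14 (95% confidence interval -0.26 to -0.01, limma adjusted p = 0.498), and with 3′ control scaling it was 0.06. The other TGIF2 probe set, 218724_s_at, changed by -0.07 with overlapping groups. The other tested TGIF1 probe set, 244858_at, changed by 0.02. On their brightest probe sets the changes of TGIF1 and TGIF2 differed by 0.67 (unadjusted 95% confidence interval 0.35 to 0.99 from the 6 array differences). That comparison was added after the data were seen. An exact 2-sided permutation test of this difference gave p = 0.1, the smallest that 3 against 3 arrays allow, or 0.4 adjusted over the 4 paralogue pairs compared.

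**Figure D2:**
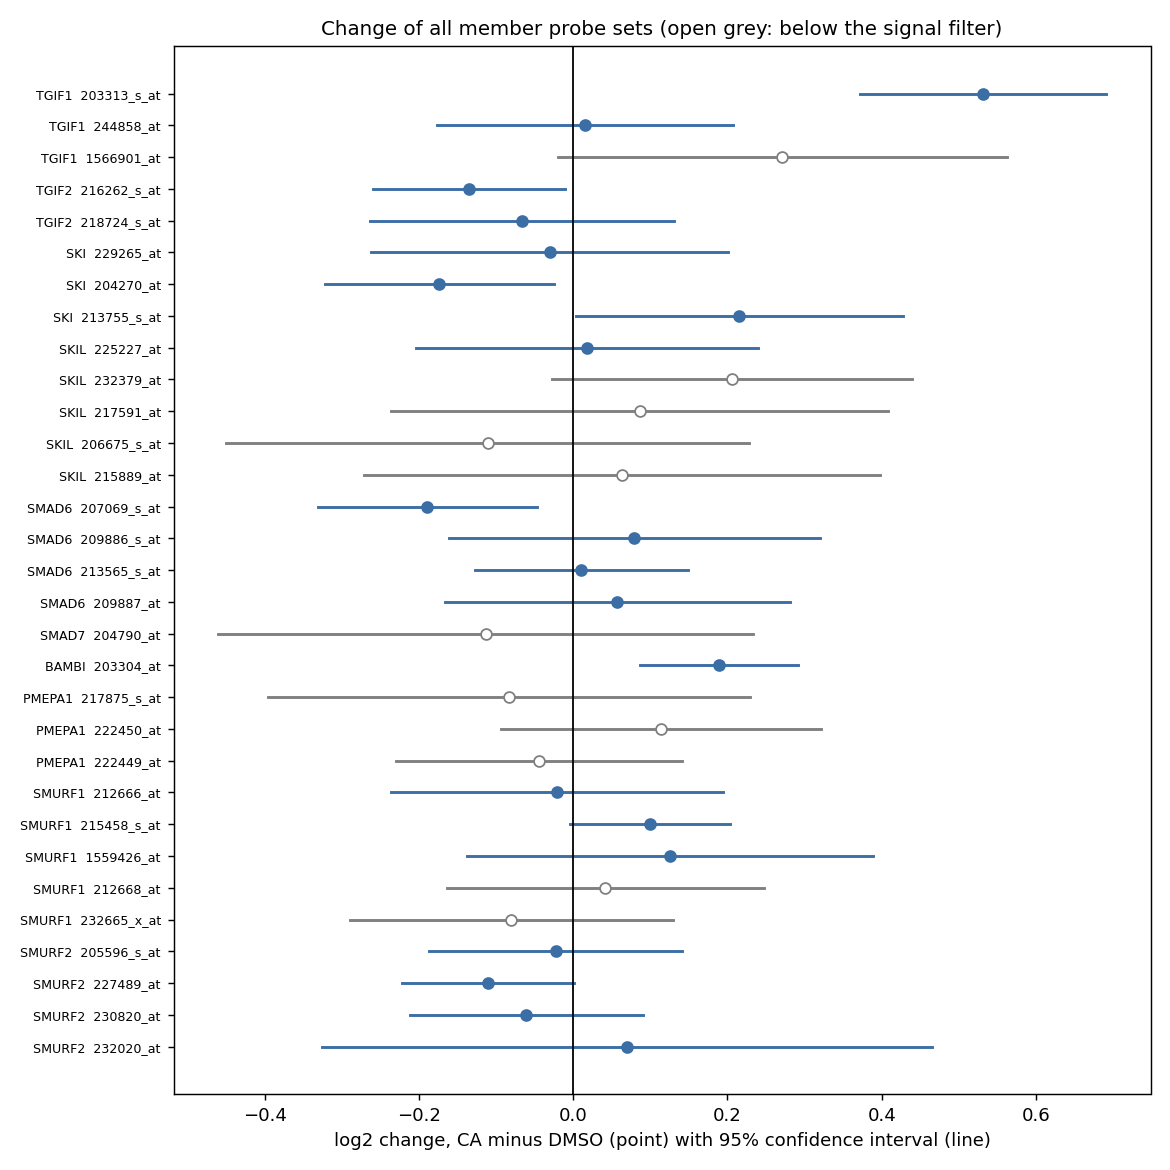
Log2 change, CA minus DMSO, of all 31 member probe sets (points) with 95% confidence intervals (lines); filled blue points are the 20 tested probe sets and open grey ones the 11 below the signal filter, whose intervals come from the fit with no filter. TGIF1 203313_s_at stands at 0.53, and every other tested point lies within 0.22 of 0.

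SKI and SKIL are paralogous proto-oncoproteins that bind SMAD complexes and recruit corepressors. The 3 probe sets of SKI disagreed. 229265_at, the brightest, read 8.59, 8.69 and 8.70 in DMSO and 8.85, 8.53 and 8.52 in CA, so CA array 1 was the highest and the other CA arrays the lowest of the 6. Its change was -0.03 (95% confidence interval -0.26 to 0.20), -0.14 without CA array 1 and -0.30 with the control ratio as a covariate. 204270_at read 6.49, 6.62 and 6.43 in DMSO and 6.31, 6.31 and 6.40 in CA, all 3 CA arrays being lower, with a change of -0.17 (SE 0.06, unadjusted p = 0.0280, limma adjusted p = 0.457). With 3′ control scaling that change was 0.02, and with the control ratio as a covariate 0.04. 213755_s_at went the other way, from 4.84, 5.07 and 5.14 in DMSO to 5.33, 5.22 and 5.15 in CA. Its change was 0.22 (SE 0.09, unadjusted p = 0.0474, limma adjusted p = 0.530), with the nearest arrays of the groups almost touching. With 3′ control scaling it was 0.41 and called (limma adjusted p = 0.0269), and with the covariate it was 0.10. Higher calls with 3′ control scaling numbered 3675 of all 27307 tested probe sets. The mean over the 3 SKI probe sets changed by 0.00.

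SKIL had 1 tested probe set of 5. 225227_at read 7.26, 7.56 and 7.27 in DMSO and 7.47, 7.32 and 7.35 in CA, with DMSO array 2 the highest of all 6 arrays. The change was 0.02 (95% confidence interval -0.20 to 0.24). The other 4 were dim, with means of 2.21 to 2.60 and changes of -0.11 to 0.21, and in each of them the groups overlapped. The changes of SKI and SKIL on their brightest probe sets differed by -0.05 (95% confidence interval -0.34 to 0.25, exact permutation p = 0.8, 1 after adjustment over the 4 pairs).

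SMAD6, which mainly restrains BMP signalling, was lower in CA on its brightest probe set. 207069_s_at read 6.45, 6.52 and 6.50 in DMSO and 6.41, 6.23 and 6.26 in CA, with CA array 1 close below the DMSO arrays and the other CA arrays well below. The change was -0.19 (SE 0.06, 95% confidence interval -0.33 to -0.05, unadjusted p = 0.0166, limma adjusted p = 0.395). It was -0.24 without CA array 1 and -0.28 with the control ratio as a covariate, but 0.01 with 3′ control scaling. The other 3 SMAD6 probe sets were dimmer, with means of 3.61 to 4.46, and changed by 0.01 to 0.08 with overlapping groups. SMAD7, which blocks both TGF-beta and BMP receptors, had 1 probe set, below the filter. It read 3.58, 3.39 and 3.21 in DMSO and 3.41, 3.45 and 2.98 in CA, a spread within each group larger than the difference of -0.11 between them. The 95% confidence interval with no filter was -0.46 to 0.23. A small change of SMAD7 could thus not be told from 0, and RMA compresses changes of dim probe sets. The changes of SMAD6 and SMAD7, the fourth pair in the adjustment over pairs, differed by -0.08 (95% confidence interval -0.60 to 0.45). The exact permutation p was 0.7 before adjustment. With SMAD7 below the filter this pair says little.

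BAMBI, the pseudoreceptor that interferes with receptor complexes, was higher in CA on its only probe set. 203304_at read 7.99, 7.99 and 8.02 in DMSO and 8.20, 8.23 and 8.14 in CA, so the groups were separated by more than the range within either. The means were 8.00 ± 0.02 and 8.19 ± 0.04 (SD, n = 3). The change was 0.19 (SE 0.04, 95% confidence interval 0.09 to 0.29), with an unadjusted p of 0.00368 and a limma adjusted p of 0.287. It was called with the mean-dependent prior variance (limma adjusted p = 0.0424) and with 3′ control scaling (0.38, limma adjusted p = 0.0279). The prior called 1.04% of all tested probe sets, and 3′ scaling 3675 higher and 16 lower of 27307. The BAMBI change was 0.18 without CA array 1, and 0.10 with the control ratio as a covariate (limma adjusted p = 0.983, unadjusted p = 0.403).

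PMEPA1, a membrane protein induced by TGF-beta that holds back receptor-regulated SMADs, was dim on all 3 of its probe sets. The brightest, 217875_s_at, read 2.96, 3.30 and 3.25 in DMSO and 3.26, 2.86 and 3.15 in CA. The groups overlapped, the change was -0.08, and the others changed by 0.11 and -0.04. A difference in PMEPA1 was not detectable at these signals.

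SMURF1 and SMURF2, the HECT-type ubiquitin ligases that act on SMADs and, together with inhibitory SMADs, on receptors, had changes close to 0. SMURF1 212666_at read 5.49, 5.69 and 5.46 in DMSO and 5.66, 5.52 and 5.40 in CA, and changed by -0.02 (95% confidence interval -0.24 to 0.19). The dimmer SMURF1 probe set 215458_s_at read 4.16, 4.14 and 4.23 in DMSO and 4.29, 4.26 and 4.29 in CA. Its CA arrays all lay above DMSO, by a change of 0.10 (95% confidence interval 0.00 to 0.20, limma adjusted p = 0.553). With 3′ control scaling it was 0.30 and called (limma adjusted p = 0.0378), where 3675 of all 27307 tested probe sets were called higher. The remaining tested SMURF1 probe set changed by 0.13 (0.55 with the covariate, limma adjusted p = 0.815), and 2 below the filter by 0.04 and -0.08, all with overlapping groups.

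SMURF2 205596_s_at read 7.50, 7.67 and 7.63 in DMSO and 7.64, 7.61 and 7.47 in CA, and changed by -0.02 (95% confidence interval -0.19 to 0.14). On 227489_at the values were 5.84, 5.85 and 5.90 in DMSO and 5.81, 5.71 and 5.74 in CA, without overlap. That change was -0.11 (95% confidence interval -0.22 to 0.00, limma adjusted p = 0.543), and 0.09 with 3′ control scaling. The other SMURF2 probe sets changed by -0.06 and 0.07 with overlapping groups. On their brightest probe sets the changes of SMURF1 and SMURF2 differed by 0.00 (95% confidence interval -0.19 to 0.19, exact permutation p = 1 before and after adjustment).

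**Figure D3:**
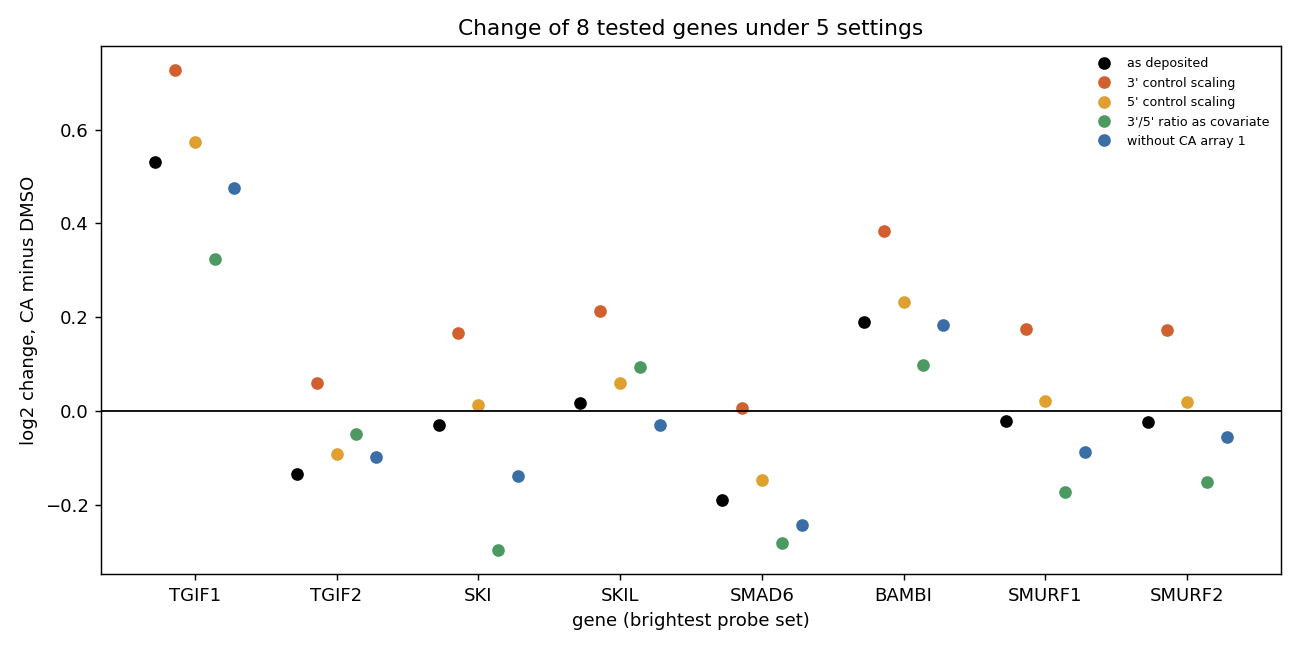
Log2 change, CA minus DMSO (vertical axis), of the brightest probe set of the 8 tested genes under 5 settings (colours). TGIF1 (0.32 to 0.73) and BAMBI (0.10 to 0.38) stay above 0 in all 5, while TGIF2 and SMAD6, below 0 as deposited, are at 0.06 and 0.01 with 3′ control scaling.

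Other genes of the pathway were read from 7 lists with 84 genes, of which 62 were measured. None was called by limma, where 0.0859% of the 12810 measured genes were. At an unadjusted p under 0.05 there were 4 higher and 7 lower in CA, where 8.61% of measured genes passed. The groups did not overlap for 5 genes higher and 10 lower in CA, where they did not for 16.1% of measured genes. The median change was -0.02. With 3′ control scaling, changes between -0.20 and 0 lie above 0. In that setting 8 of these genes were called, where 3675 of all 27307 tested probe sets were called higher and 16 lower. TGFBR1, TOB1 and ID2 were called with the mean-dependent prior variance, where 1.23% of genes were.

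Of 10 measured ligand genes, 1 was at an unadjusted p under 0.05 by limma, which 8.61% of measured genes passed. GDF15, a divergent member of the TGF-beta family, read 6.97, 6.98 and 6.94 in DMSO and 6.82, 6.78 and 6.66 in CA, a change of -0.21 (limma adjusted p = 0.328) without overlap. With 3′ control scaling the GDF15 change was -0.02, and with the control ratio as a covariate -0.40. TGFB3 had -0.19 and BMP6 -0.13, both with overlapping groups. Of 9 receptor genes, TGFBR1, the type I TGF-beta receptor, read 9.60, 9.63 and 9.62 in DMSO and 9.84, 9.75 and 9.76 in CA. That was a change of 0.17 (limma adjusted p = 0.343) without overlap. With 3′ control scaling TGFBR1 was at 0.36 and called (limma adjusted p = 0.0283), and with the covariate at 0.11. BMPR2 had -0.16 and ACVR1B, an activin receptor, -0.11. Among 4 measured signal-carrying SMADs, SMAD3 had 0.18 (unadjusted p = 0.0357, limma adjusted p = 0.494), SMAD4 0.06 and SMAD5 -0.02, all with overlapping groups. With 3′ control scaling SMAD3 was at 0.37 and called (limma adjusted p = 0.0346), and with the covariate at 0.28.

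Target genes went both ways, with 2 of 10 higher and 2 lower at an unadjusted p under 0.05 by limma. Of all measured genes, 8.61% passed that threshold in either direction. ID2, a helix-loop-helix inhibitor induced by BMP, read 6.14, 6.14 and 6.02 in DMSO and 6.67, 6.48 and 6.45 in CA. The CA arrays were all higher, by 0.44 (SE 0.07, limma adjusted p = 0.169). With 3′ control scaling ID2 was at 0.63 and called (limma adjusted p = 0.0173), and with the covariate at 0.25 (limma adjusted p = 0.925). ID1, another BMP target, had 0.15 (limma adjusted p = 0.473). The cell cycle inhibitor CDKN1A had -0.21 (limma adjusted p = 0.343) and the TGF-beta early gene KLF10 -0.21 (limma adjusted p = 0.440). In these 4 genes the groups did not overlap, which held for 16.1% of measured genes. With 3′ control scaling ID1 was at 0.35 and called (limma adjusted p = 0.0365), while CDKN1A and KLF10 were each at -0.01.

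Among partners and other regulators none was called as deposited, and changes ranged from -0.25 to 0.12. The 8 measured genes listed as corepressor partners gave 0 at an unadjusted p under 0.05 by limma, which 8.61% of measured genes passed. HDAC2, the brightest, had -0.04, SIN3B -0.08 and MECOM 0.03. Of 13 genes listed as other inhibitors, 3 were lower and 0 higher at that p, which 8.61% of measured genes passed in either direction. TOB1, an antiproliferative protein that restrains BMP-activated SMADs, read 8.50, 8.59 and 8.39 in DMSO and 8.25, 8.27 and 8.19 in CA, a change of -0.25 (limma adjusted p = 0.319) without overlap. PPM1A, a phosphatase of receptor-regulated SMADs, had -0.22. The endosomal protein gene ZFYVE16, whose place among inhibitors is uncertain, had -0.17, while STUB1, the brightest, had 0.01. With 3′ control scaling TOB1, PPM1A and ZFYVE16 were at -0.06, -0.02 and 0.02, and with the covariate at -0.26, -0.42 and -0.17. Of 8 positive regulators, the acetyltransferase gene CREBBP had -0.18 (limma adjusted p = 0.503), ZFYVE9, an anchor for SMADs, -0.11, EP300 -0.07 and MAP3K7, the brightest, -0.05.

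**Figure D4:**
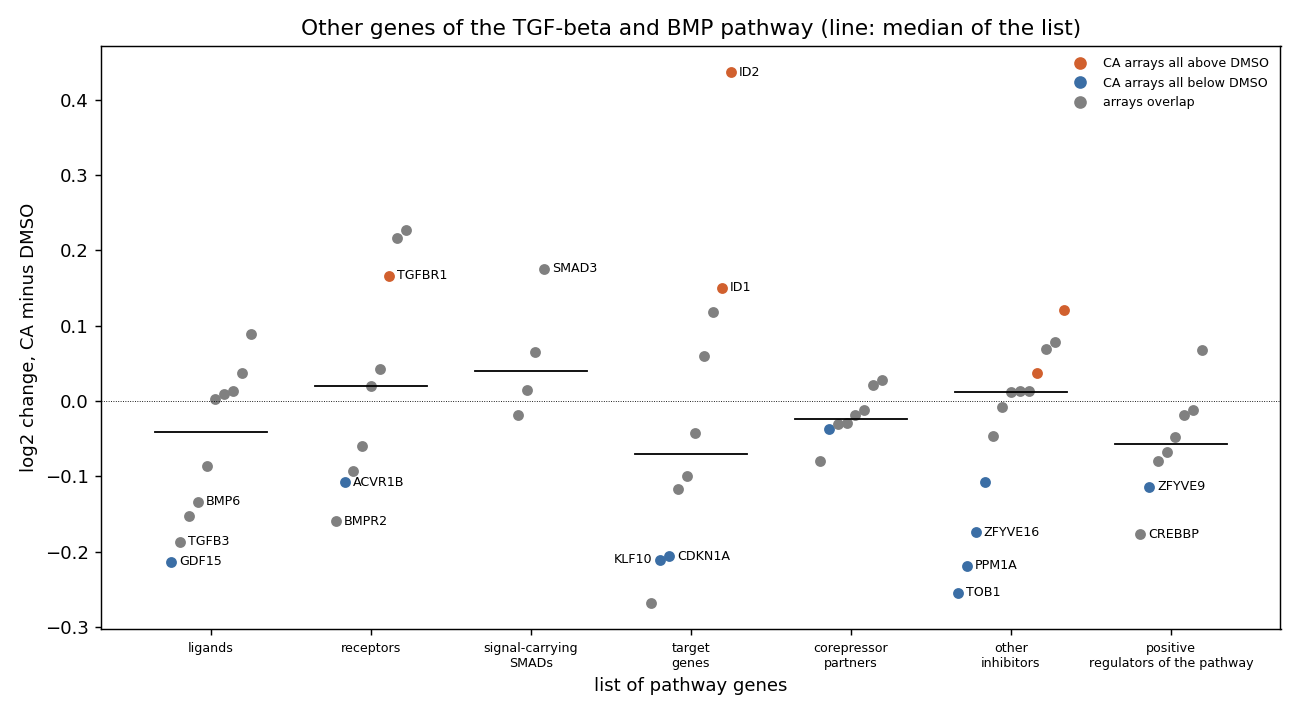
Log2 change, CA minus DMSO (vertical axis), of 62 measured pathway genes in 7 lists; orange and blue points are genes whose CA arrays all lay above or below DMSO, grey points overlap, and lines are list medians. ID2 at 0.44 is the highest point, and the list medians lie between -0.07 and 0.04.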

How the data were processed

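The series measured K562 cells with DMSO or CA, 3 arrays each. The authors deposited 1 table of log2 values for 54675 probe sets. Per the submitters' processing notes these were made with RMA in affy, version not given in the sources used here. RMA sets arrays to a common level, so a shift of most transcripts is not visible, and it compresses changes of dim probe sets. The number of arrays limits precision. The median SE over tested probe sets was 0.07.

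Of the 54613 probe sets other than the 62 controls, 41091 have 1 symbol in the platform annotation, 1801 several and 11721 none. Genes were named from single symbols only, and in the lists a gene is its brightest tested probe set. CA was compared with DMSO by the moderated test of limma 3.58.1 in R 4.3.3, 2-sided and without a block. Members, lists and rules were chosen with earlier results of these data known. All 10 members are named, and from each pathway list every called gene, the 3 with the smallest p and the brightest. Alternatives were the signal filter, prior variance, array weights, normalisation, control scaling, shared probe sets, a replicate block, each array left out and averaged probe sets. The covariate and the paralogue comparisons were added after seeing the data. Control scaling and the covariate were first run with 1 probe set per added RNA and end (4 in all for scaling). After those results were seen the set was widened to 8, the version given in the text, and both are in the closing section.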

Additional observations from a re-analysis of the deposited data

How the results depend on the processing

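TGIF1 203313_s_at and BAMBI had positive changes under the alternatives that kept them (0.32 to 0.74 and 0.10 to 0.40). Without shared probe sets 203313_s_at is left out, which leaves TGIF1 244858_at at 0.02, and the mean of both was 0.27. No member was called without any 1 array, with array weights, or with the replicate block. Over all probe sets the 26 calls became 5 unfiltered, 162 at the 75th percentile filter, 285 with the mean-dependent prior, 3691 with 3′ control scaling and 1 without shared probe sets. They became 2 to 5 without 1 array. Each array left out reduced them: 2 without any DMSO array, 5, 3 and 5 without CA arrays 1, 2 and 3. With the replicate block limma called 0, with 2485 below 0.05 before adjustment, and with the control ratio as a covariate 0, with 1661. Same-numbered arrays had deviations correlated at -0.07, 0.01 and 0.06, and not every array correlated best with its own number. These values show no pairing by number, but cannot exclude that same-numbered wells were handled together. With the block the change of TGIF1 stayed 0.53 (limma adjusted p = 0.348). Called member probe sets numbered 1 with the stricter filter (TGIF1), 2 with the mean-dependent prior (TGIF1, BAMBI), 1 with 5′ scaling (TGIF1) and 4 with 3′ scaling (TGIF1, BAMBI, SKI 213755_s_at, SMURF1 215458_s_at). Over the whole array the stricter filter called 162 of 13654 probe sets, and the prior 285 of 27307. With 5′ scaling 16 of 27307 were called higher and 12 lower, and with 3′ scaling 3691 of 27307 were called. Pathway genes called numbered 1 (ID2), 3, and 8 with the stricter filter, the prior and 3′ scaling. They and the members gave 0 without any 1 array, with 8 to 10 and 3 to 6 at an unadjusted p under 0.05 by limma. In the same fits 2095 to 3090 of all 27307 probe sets were at that p. Of the calls, 14 of 26 were higher as deposited and 3675 of 3691 with 3′ scaling, which moves the median of all changes to 0.19. The control probe sets were widened from 4 to 8 per end after results with 4 had been seen. With 4, 3′ scaling added 0.21 in place of 0.20 and gave 3594 calls, 4 member probe sets and 9 pathway genes. In that version 5′ scaling gave 1 member probe set (TGIF1), and the covariate 0 calls by limma, with 1643 at an unadjusted p under 0.05, and a TGIF1 change of 0.36. With the ratio of all 6 controls as the covariate, also added after seeing the data, limma called 0, with 1583 at an unadjusted p under 0.05.

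Changes of sign, with the value each took, were as follows. With 3′ scaling they were TGIF2 216262_s_at (0.0604), TGIF2 218724_s_at (0.13), SKI 229265_at (0.17), SKI 204270_at (0.0216), SMAD6 207069_s_at (0.00633), SMURF1 212666_at (0.18), SMURF2 205596_s_at (0.17), SMURF2 227489_at (0.0853), SMURF2 230820_at (0.13), BMP6 (0.0624), TGFB3 (0.00906), BMPR2 (0.0359), ACVR1B (0.0878), SMAD5 (0.18), SIN3B (0.12), HDAC2 (0.16), ZFYVE16 (0.0219), CREBBP (0.0190), ZFYVE9 (0.0821), EP300 (0.13) and MAP3K7 (0.15). With 5′ scaling they were SKI 229265_at (0.0120), SMURF1 212666_at (0.0219), SMURF2 205596_s_at (0.0196), SMAD5 (0.0243) and HDAC2 (0.00562). The turns under scaling follow from the constant added. With the covariate they were SKI 204270_at (0.0422), SMAD6 209886_s_at (-0.21), SMAD6 213565_s_at (-0.0339), TGFB3 (0.17), ACVR1B (0.0368), SMAD4 (-0.12) and SIN3B (0.0250), and the cause was not tested. With the 4 control probe sets used first, the turns were, with 3′ scaling, TGIF2 216262_s_at (0.0736), TGIF2 218724_s_at (0.14), SKI 229265_at (0.18), SKI 204270_at (0.0348), SMAD6 207069_s_at (0.0195), SMURF1 212666_at (0.19), SMURF2 205596_s_at (0.19), SMURF2 227489_at (0.10), SMURF2 230820_at (0.15), BMP6 (0.0755), TGFB3 (0.0222), BMPR2 (0.0491), ACVR1B (0.10), SMAD5 (0.19), CDKN1A (0.00313), SIN3B (0.13), HDAC2 (0.17), ZFYVE16 (0.0350), CREBBP (0.0321), ZFYVE9 (0.10), EP300 (0.14) and MAP3K7 (0.16), with 5′ scaling, SKI 229265_at (0.0107), SMURF1 212666_at (0.0206), SMURF2 205596_s_at (0.0184), SMAD5 (0.0231) and HDAC2 (0.00438), and with the covariate, SKI 204270_at (0.0773), SMAD6 209886_s_at (-0.0780), TGFB3 (0.15), ACVR1B (0.0133), SMAD4 (-0.0426) and SIN3B (0.12). With the covariate from all 6 controls they were SKI 204270_at (0.00376), SMAD6 209886_s_at (-0.13), SMAD6 213565_s_at (-0.0266), TGFB3 (0.0148), ACVR1B (0.00400) and SMAD4 (-0.0266). Near 0, the sign changed with array weights for SKIL 225227_at (-0.00208), with quantile normalisation again for SMAD6 213565_s_at (-0.000851) and with centring for SMAD6 213565_s_at (-0.00488) and STUB1 (-0.00215). Averaged probe sets changed that of SKI 229265_at (0.00350) and SMURF1 212666_at (0.0681). With 1 array left out the changes that crossed 0 ranged from -0.0370 to 0.10 for TGIF1 244858_at, -0.13 to 0.0147 for TGIF2 218724_s_at, -0.14 to 0.0244 for SKI 229265_at, -0.0356 to 0.11 for SKIL 225227_at, -0.00525 to 0.16 for SMAD6 209886_s_at, -0.0405 to 0.0434 for SMAD6 213565_s_at, -0.00294 to 0.15 for SMAD6 209887_at, -0.0885 to 0.0512 for SMURF1 212666_at, -0.0738 to 0.0271 for SMURF2 205596_s_at, -0.0327 to 0.26 for SMURF2 232020_at, -0.0263 to 0.11 for SMAD4, -0.00228 to 0.0247 for STUB1 and -0.0894 to 0.000383 for MAP3K7. Signal limits the rest: 11 of 31 member probe sets, including all of SMAD7 and PMEPA1, were too dim to test.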
